A study of Homo sapiens with 12 samples.

Results

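The 10 genes BCR, ABL1, STAT5A, STAT5B, CISH, PIM1, SOCS2, BCL2L1, CRKL and GAB2 were followed through the 11 UMI tables of a study that introduced LAST-seq, a single-cell RNA-seq assay. They were chosen by name as parts of the BCR-ABL1 and STAT5 pathway, and all 10 were found among the 32960 genes with a UMI in any table. A UMI (unique molecular identifier) is a random tag that lets the copies of 1 captured RNA molecule be counted once, and levels are given here as UPM, the UMIs of a gene per 1000000 gene UMIs of a table.

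BCR-ABL1 is the fusion of the BCR and ABL1 genes made by a translocation between chromosomes 9 and 22 in chronic myeloid leukaemia. It joins the start of BCR to the kinase part of ABL1 and yields a tyrosine kinase that is always active. The kinase signals through the adaptors CRKL and GAB2 and through phosphorylation of the transcription factors STAT5A and STAT5B. Known targets of STAT5 include the feedback inhibitors CISH and SOCS2, the kinase PIM1 and the survival factor BCL2L1 (BCL-xL).

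HEK293T, a human embryonic kidney line, was profiled as single cells, lysate and 15-pg total RNA by LAST-seq and as single cells and lysate by the CEL-seq2 assay, with 10 wells in each library. eHAP1 is a haploid line derived from a leukaemia line that carries BCR-ABL1. It was profiled by LAST-seq as WT cells and as cells with the SCC4 gene (also called MAU2, a loader of the cohesin complex) knocked out by Cas9, called SCC4 KO. The WT and KO tables each held 2 batches, with 73 and 75 WT cells and 77 and 76 KO cells.

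HEK293T cells were sorted for viability only and grown in another medium than eHAP1 cells, which were sorted as live haploid cells in the G1 phase. The eHAP1 libraries pooled more cells than those of HEK293T and had no spike-in counts. The HEK293T cell libraries by LAST-seq differed from each other in their spike-in mix, as did those by CEL-seq2. Upon subcloning, the haploid cells were grown with 10-deacetylbaccatin-III to keep them haploid. Cell line, medium, ploidy, sort, this compound and library preparation therefore cannot be told apart. The cells grew from subclones, so a difference between genotypes cannot be told apart from a difference between clones. The labels do not state that the libraries or batches came from separate cultures, so a spread between them may be technical.

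HEK293T LAST-seq cells held between 82596 and 190557 UMIs and eHAP1 cells between 18022 and 926415. The targeted MAU2 was at 44.2 and 41.2 UPM in the WT batches and at 9.17 and 14.5 in the KO batches. Of 16 haematopoietic markers, between 8 and 9 were at 0 in the WT batches and between 10 and 11 in the HEK293T LAST-seq libraries, with PTPRC, CD33 and SPI1 at 0 in WT. Such counts depend on depth, with 7370620 and 12301326 UMIs in the WT batches and 1424870 and 1509801 in these libraries. Above 1 UPM were 5 markers in each WT batch and 3 and 6 in the libraries. The summed level of these markers was 73.5 and 66.2 UPM in WT, mainly from HCLS1 at 46.5 and 46.3. In HEK293T by LAST-seq it was 30.2 and 30.5, with HCLS1 at 0. The CEL-seq2 cells of HEK293T held 72.7 and 30.9, so the higher sum in WT did not hold against every HEK293T library. Other markers of the list had lower levels in WT than in HEK293T by LAST-seq. CD34 was at 0 in both WT batches against 5.61 and 7.29, and VAV1 at 0.136 and 0.163 against 2.81 and 2.65. By CEL-seq2, CD34 was at 0 in both libraries of HEK293T cells. GATA2 overlapped, at 15.5 and 10.6 in WT and 20.4 and 13.2 in HEK293T by LAST-seq. The list was summed at 119 and 116 UPM in KO, where HCLS1 was at 87.7 and 88.1. Of 12 kidney and neural markers, HOXD10 was at 0 in WT and at 21.1 and 23.8 in HEK293T, whereas PAX2 was at 14.9 and 16.0 in WT and at 0 and 1.32 in HEK293T. The 12 summed to 83.3 and 82.1 UPM in WT, 162 and 119 in HEK293T and 162 and 150 in KO. The part of these marker differences in the results below was not tested. Between 70 and 75 cell barcodes were shared by any pair of eHAP1 batches, as the plates used 1 barcode set.

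STAT5 binds DNA at the palindrome TTCNNNGAA, and the promoters of the genes were searched for it in the 250 bases before the RefSeq start of each gene (GRCh38.p14). The table held 13 entries for 9 of the genes and none for SOCS2. CISH alone had matches, 4 in all, while the other 12 entries had none. The motif reads the same on both strands, and 6.57% of the 35116 promoters in the table hold at least 1 match, but only 5 promoters hold 4 or more. The CISH window (chr3:50611775-50612024, minus strand) is shown with the matches in capitals, beside that of PIM1 (chr6:37169902-37170151, plus strand), another target without a match, and that of BCR (chr22:23180259-23180508, plus strand), from which the fusion message would start.
CISH: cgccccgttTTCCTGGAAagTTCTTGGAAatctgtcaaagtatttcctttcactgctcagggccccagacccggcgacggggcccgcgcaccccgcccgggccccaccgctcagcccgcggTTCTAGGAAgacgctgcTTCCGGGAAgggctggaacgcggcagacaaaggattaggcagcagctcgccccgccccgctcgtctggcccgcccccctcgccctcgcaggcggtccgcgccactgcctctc
PIM1: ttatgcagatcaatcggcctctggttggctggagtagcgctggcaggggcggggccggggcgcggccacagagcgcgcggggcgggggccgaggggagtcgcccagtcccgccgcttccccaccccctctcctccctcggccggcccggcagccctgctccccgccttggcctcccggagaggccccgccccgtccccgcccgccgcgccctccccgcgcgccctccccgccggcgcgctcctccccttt
BCR: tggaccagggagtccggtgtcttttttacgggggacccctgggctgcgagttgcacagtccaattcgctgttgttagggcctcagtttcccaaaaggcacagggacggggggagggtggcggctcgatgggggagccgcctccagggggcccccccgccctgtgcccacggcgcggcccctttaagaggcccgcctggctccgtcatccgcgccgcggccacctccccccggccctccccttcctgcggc
The matches start at -241, -230, -129 and -112 counted from the base before the start as -1, so they form 2 close pairs. The GC content was 68.8% in the CISH window, 79.6% in that of PIM1 and 70.8% in that of BCR, against a median of 58.0% over all promoters in the table. A match of letters describes the window and is no measure of binding.

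BCR, on chromosome 22 from 23179704 to 23318037 (GRCh38, plus strand), encodes a GTPase regulator and gives the fusion its first part. HEK293T cells by LAST-seq held BCR at 23.2 and 18.5 UPM, and the eHAP1 WT batches at 6.92 and 5.61. All WT and KO batches lay below all HEK293T tables, the lowest of which was the LAST-seq lysate at 11.3. The 15-pg RNA held 20.7, the CEL-seq2 cells 37.3 and 27.5, and the CEL-seq2 lysate 26.0. The log2 difference between WT and HEK293T cells, on log2(UPM + 1), averaged -1.59 and ranged from -1.87 to -1.30 over the 4 pairs of a HEK293T library and a WT batch.

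ABL1, on chromosome 9 from 130713043 to 130887675 (plus strand), encodes the tyrosine kinase. HEK293T cells held it at 27.4 and 43.1 UPM, and the WT batches at 3.39 and 6.42. Both WT batches lay below both libraries, by a mean log2 difference of -2.63 with a range from -3.33 to -1.93. The 15-pg RNA held 36.1, the LAST-seq lysate 37.6 and the CEL-seq2 cells 23.2 and 32.97, all above the eHAP1 batches. The CEL-seq2 lysate, with 3 UMIs or 3.55 UPM (95% counting interval 0.732 to 10.4), overlapped the WT batches. ABL1 had the largest mean difference between the lines of the 8 members past the filter described below.

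A UMI near the end of a message cannot show how the message began. A BCR-ABL1 message ends as ABL1 and would be counted as ABL1 and not as BCR. Whether the BCR level holds any other message of the rearranged genes was not tested. In a haploid line a fusion would take up the only copy of each gene. The eHAP1 levels therefore cannot be read as those of normal ABL1 and BCR messages, and their make-up was not tested. Among the BCR pseudogenes, which share sequence with BCR, BCRP3 had 1 and 0 UMIs in the HEK293T LAST-seq cells and 5 in each library of CEL-seq2 cells, and BCRP2 and BCRP3 had 0 in every eHAP1 batch.

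GAB2, on chromosome 11 from 78215293 to 78418348 (minus strand), encodes a docking protein that links the fusion kinase to PI3K and SHP2. By LAST-seq it was at 3.51 and 3.97 UPM in HEK293T cells and at 13.02 and 14.3 in the WT batches. The groups did not overlap, and the mean log2 difference was 1.63, with a range from 1.50 to 1.76. It rested on 5 and 6 UMIs in the HEK293T libraries. The other HEK293T LAST-seq tables were as low, with 0.902 in 15-pg RNA and 0 UMIs in the lysate, which allows up to 3.76 UPM at 3 counts.

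CEL-seq2 gave the opposite order for GAB2. The CEL-seq2 cells held 44.4 and 26.8 UPM and the lysate 30.7, all above the WT batches, and the mean log2 difference of WT minus CEL-seq2 cells was -1.28 (edgeR log2 -1.38, adjusted p = 0.0230). Between the assays in HEK293T cells, GAB2 was 3.22 higher by CEL-seq2 on the log2 scale (edgeR's quasi-likelihood test, adjusted p = 0.00524), a comparison added after the data were seen. By that test 17.1% of 11787 genes were higher by CEL-seq2 and 5.96% lower, and GAB2 was the only one of the 8 members tested that was called. The deposited reads show that the 69 UMIs of GAB2 in CEL-seq2 replicate 1 came from 76 reads, or 1.10 reads per UMI, against 2.71 over all genes. In the same library BCL2L1 had 3.91 reads per UMI, ABL1 3.44 and CRKL 3.17, while BCR had 1.88, STAT5B 1.81, PIM1 1.73, CISH 1.33 and SOCS2 1.17. By LAST-seq, GAB2 had 3.40 and 1.33 reads per UMI in HEK293T cells, against 4.83 and 4.48 over all genes. An antisense lncRNA gene that overlaps GAB2 exons was at 13.5 and 5.49 UPM in the CEL-seq2 cells and at 0 in the LAST-seq cells of both lines. The direction of GAB2 between the lines therefore depended on the HEK293T assay.

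**Figure D1:**
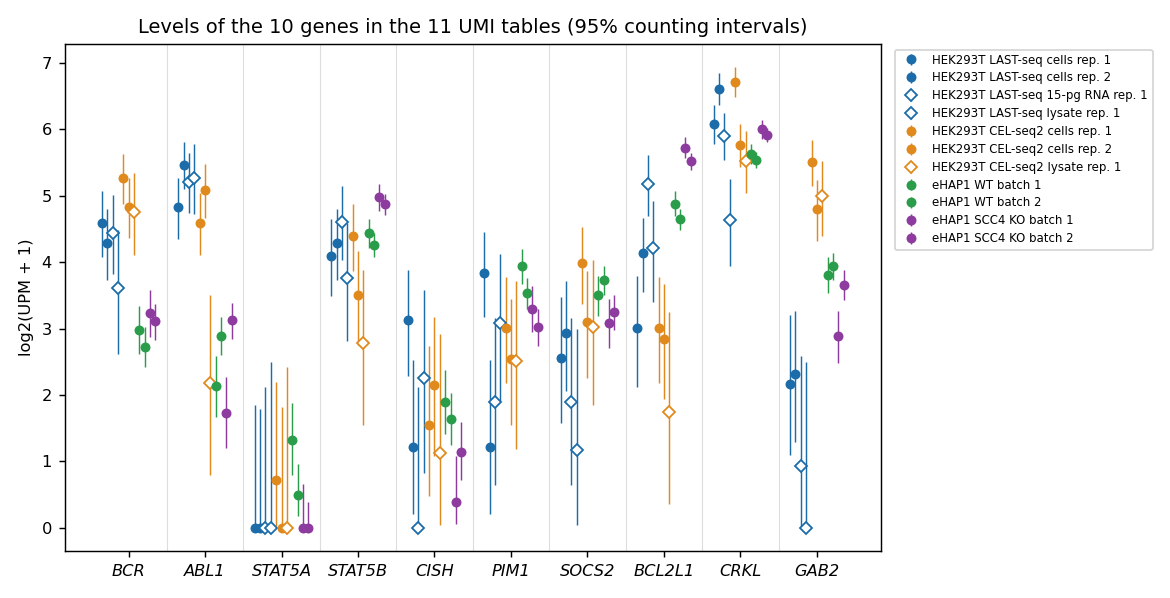
Levels of the 10 genes as log2(UPM + 1) in the 11 UMI tables, with filled points for cells, open diamonds for lysate and 15-pg RNA, and bars for 95% counting intervals. ABL1 and BCR sit lower in eHAP1 (green and purple) than in HEK293T cells, and the GAB2 points by CEL-seq2 (orange) sit above the green ones while those by LAST-seq (blue) sit below.

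CRKL, on chromosome 22 from 20917407 to 20953747 (plus strand), encodes an adaptor that is a main substrate of the fusion kinase. It was at 66.7 and 96.7 UPM in HEK293T cells and at 48.6 and 45.6 in WT. The WT batches were lower than both libraries, with a mean log2 difference of -0.76, short of 2-fold in 3 of the 4 pairs. The 15-pg RNA held 58.6, the LAST-seq lysate 23.8 and the CEL-seq2 lysate 44.9, so WT lay within the range of HEK293T tables.

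STAT5B, on chromosome 17 from 42199176 to 42288633 (minus strand), was at 16.1 and 18.5 UPM in HEK293T cells and at 20.6 and 18.1 in WT. The groups overlapped, with a mean log2 difference of 0.15 and a range from -0.03 to 0.34. Its paralogue STAT5A, the next gene on chromosome 17 from 42287547 to 42311943 (plus strand), had 0 UMIs in both HEK293T libraries. In WT it had 11 UMIs in 11 cells of batch 1 and 5 UMIs in 3 cells of batch 2. The WT level of 0.813 UPM was under the 1.02 that 3 counts over both HEK293T libraries would give, so a difference was not detectable at this depth. Reads shared by the paralogues or by their overlapping ends could be lost or split in counting.

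The 4 targets of STAT5 did not move as 1 group between the lines. BCL2L1, on chromosome 20 from 31664452 to 31723989 (minus strand), was at 7.02 and 16.6 UPM in HEK293T cells and at 28.5 and 24.0 in WT. WT was higher in all 4 pairs, by a mean log2 difference of 1.19 with a range from 0.51 to 1.88, and the 2-fold rule was missed against replicate 2. The 15-pg RNA, at 35.2, lay above the WT batches, and the CEL-seq2 cells, at 7.08 and 6.18, lay below.

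SOCS2, on chromosome 12 from 93569814 to 93583487 (plus strand), was at 4.91 and 6.62 UPM in HEK293T cells and at 10.3 and 12.3 in WT, a mean log2 difference of 0.87. WT was higher in all 4 pairs, but the CEL-seq2 cells, at 14.8 and 7.56, enclosed the WT levels. PIM1, on chromosome 6 from 37170152 to 37175428 (plus strand), was at 13.3 and 1.32 in HEK293T cells and at 14.4 and 10.6 in WT. Its HEK293T libraries differed from each other more than WT did from replicate 1, and the log2 difference ranged from -0.31 to 2.73.

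CISH, on chromosome 3 from 50606489 to 50611774 (minus strand), was low in each table. It was at 7.72 and 1.32 UPM in HEK293T cells and at 2.71 and 2.11 in WT, so WT lay between the libraries. CISH, the gene with 4 motif matches in its window, was found in 16 of 73 and 19 of 75 WT cells. CISH and MAPKAPK3 overlap on opposite strands, and whether counting used strand is not given in the sources used here.

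By the main rule, a gene was called when it differed at least 2-fold in the same direction in all 4 pairs, with a mean of at least 5 UPM. Of the 10 members, 8 passed this filter and STAT5A and CISH did not. GAB2 was called higher in WT, where 10.7% of the 10806 genes tested were called, and BCR and ABL1 lower, where 11.2% were called. The median log2 difference was 0.51 over the 8 members and -0.17 over all genes. The scaling matters for this comparison: by TMM, which shifts WT by 0.21 on the log2 scale, 62.3% of all genes called were higher in WT, against 48.8% with total UMIs. BCR, ABL1 and GAB2 were called under both.

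As an alternative, edgeR's quasi-likelihood test on the 4 sums called 15.3% of all genes higher and 21.8% lower in WT. It called ABL1 (log2 -2.81, adjusted p = 0.0100), BCR (log2 -1.74, adjusted p = 0.0222) and CRKL (log2 -0.80, adjusted p = 0.0369) lower and GAB2 (log2 1.86, adjusted p = 0.0269) higher. The adjusted p of edgeR was 0.0929 for BCL2L1, 0.144 for SOCS2, 0.523 for PIM1 and 0.672 for STAT5B. Without WT batch 1 or batch 2, only the ABL1 call stayed under 0.05 in edgeR (adjusted p = 0.00964 and 0.00150). BCR was then at 0.0936 and 0.164, GAB2 at 0.142 and 0.213 and CRKL at 0.173 and 0.235, where the lone batch is assumed to vary like the HEK293T libraries. With TMM, edgeR also called BCL2L1 higher (adjusted p = 0.0364) and no longer called CRKL (adjusted p = 0.0515). PIM1 was called higher by edgeR without HEK293T replicate 1 (log2 3.21, adjusted p = 0.0153), and BCL2L1 without replicate 2 (log2 1.89, adjusted p = 0.00484).

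**Figure D2:**
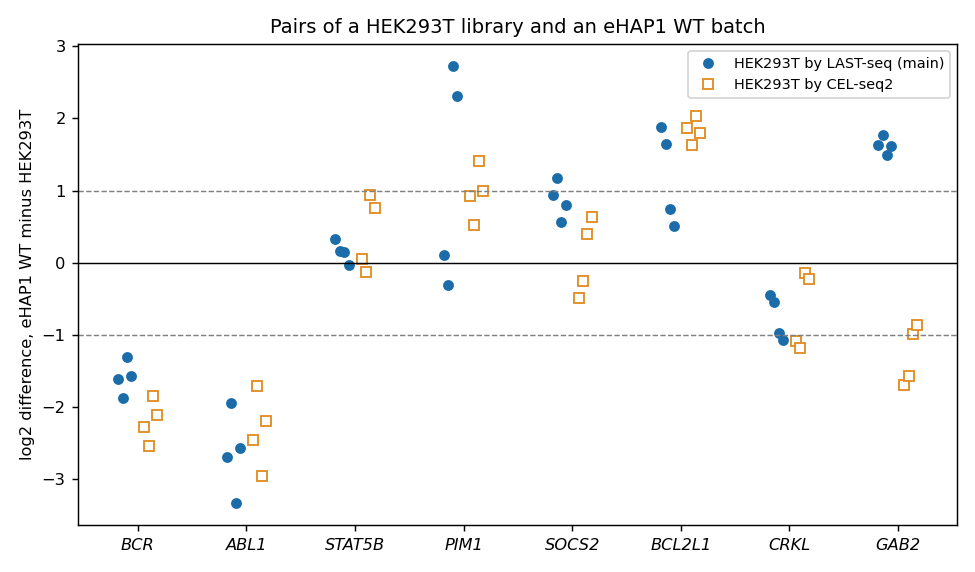
Log2 difference of eHAP1 WT minus HEK293T for the 8 members past the filter, 1 point for each pair of a HEK293T library and a WT batch, against HEK293T by LAST-seq (filled) or CEL-seq2 (open); dashed lines mark 2-fold. BCR and ABL1 are lower against both assays, while GAB2 is higher against LAST-seq and lower against CEL-seq2.

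The genes beside ABL1 and BCR in the reference genome were taken to describe levels on each side. The translocation breaks both genes, so genes on opposite sides may not lie on the same chromosome in eHAP1. Within 1 Mb of ABL1, 16 protein-coding genes passed the filter, 10 at lower and 6 at higher coordinates. ASS1, which encodes argininosuccinate synthase, was called higher (9.12 and 10.6 UPM in HEK293T, 38.0 and 34.1 in WT), and none was called lower. The median log2 difference was -0.57 on the lower side and -0.79 on the higher side, where NUP214 was at -0.90, POMT1 at -1.03 and UCK1 at -1.15. On the lower side, FUBP3, 74.7 kb from ABL1, was at -1.20 and NCS1 at 1.21. None of the 16 neighbours was as low as ABL1 at -2.63.

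Within 1 Mb of BCR, 3 genes at lower and 6 at higher coordinates passed the filter. On the lower side ZNF280B and the tumour antigen gene PRAME were called lower, at log2 differences of -1.72 and -3.34, whereas GNAZ, 54.7 kb from BCR, was at -0.16. PRAME was at 60.4 and 47.7 UPM in HEK293T cells and at 2.04 and 8.54 in WT. On the higher side the sugar transporter gene SLC2A11 was called higher at 3.01, ZNF70 was at -0.99 and SPECC1L at 0.57. The genes beside BCR thus went in both directions.

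**Figure D3:**
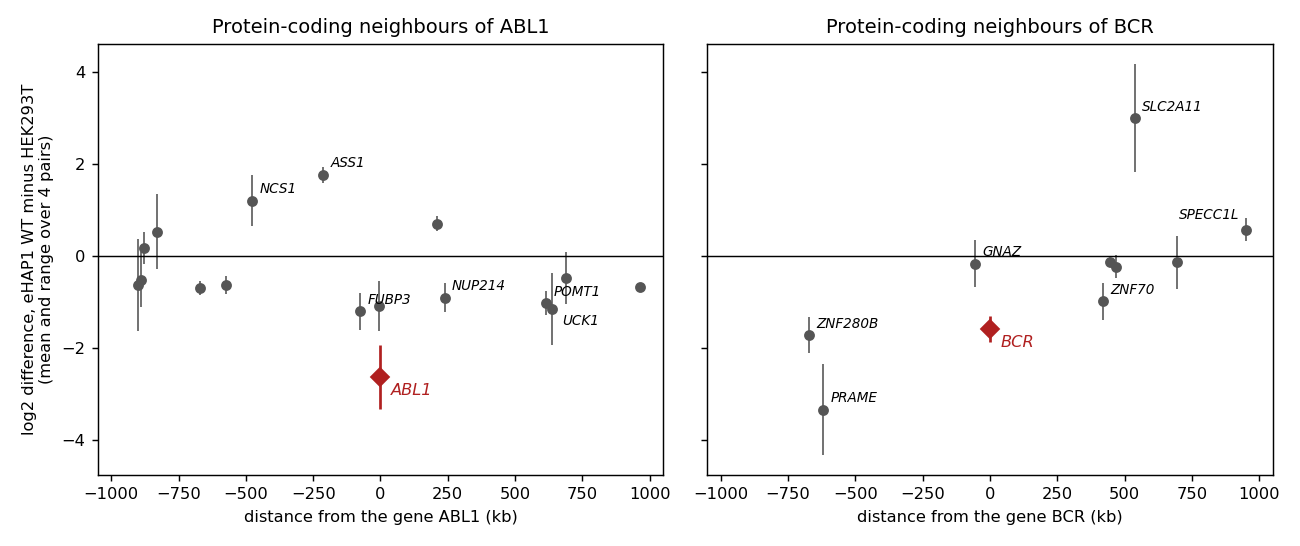
Log2 difference of eHAP1 WT minus HEK293T (mean and range over 4 pairs) of ABL1 and BCR (red) and the protein-coding genes within 1 Mb that passed the filter, by distance in kb. Distances are those of the reference genome. ABL1, at -2.63, lies below all its neighbours, while PRAME, at -3.34, lies below BCR.

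The genes whose levels followed ABL1 most closely over the 8 LAST-seq libraries and batches were TRIM41 (Pearson's r of 0.998), RPL7P56 (0.989) and CA2 (0.977), out of 10865 genes. Those closest to BCR were GUSB (0.989), YIF1A (0.986) and HNRNPAB (0.986), and r between ABL1 and BCR was 0.811. These describe 8 points that fall into the 2 lines, so any gene that differs between the lines tends to a high r.

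Around the members, other parts of the pathway were taken as lists. Of 18 adaptors and partners of BCR-ABL1, 12 passed the filter, of which 1 was called lower in WT and none higher. It was PTPN11, the SHP2 phosphatase that GAB2 recruits, at 77.2 and 95.4 UPM in HEK293T cells and 33.5 and 31.8 in WT. None of the 6 JAK kinases and other STATs that passed was called, and their median log2 difference was -0.60. Only 2 of 12 cytokine receptors passed, and neither was called.

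Of 14 further STAT5 targets, 9 passed the filter, with 1 called higher, 2 called lower and a median log2 difference of 0.36. MYC, the growth regulator, was at 18.9 and 23.8 UPM in HEK293T cells and at 0.543 and 0.325 in WT, and the cyclin gene CCND1 was at 13.3 and 8.61 against 0.136 and 0.163. CCND3, another D cyclin, went the other way, with 23.2 and 25.2 in HEK293T cells and 52.6 and 55.0 in WT. Of 8 inhibitors of JAK-STAT signalling, 6 passed. The phosphatase gene PTPN1 was called lower (91.9 and 60.3 in HEK293T, 15.2 and 21.3 in WT) and PIAS2 higher (4.91 and 11.3 in HEK293T, 33.4 and 28.5 in WT).

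**Figure D4:**
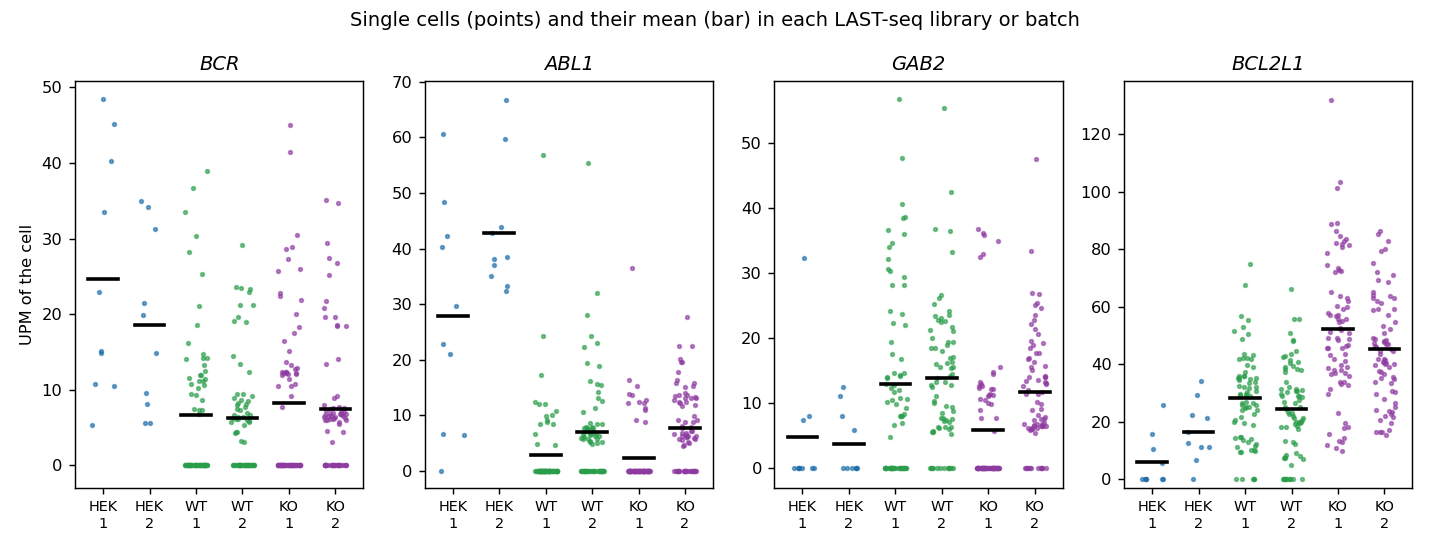
BCR, ABL1, GAB2 and BCL2L1 in single cells (points) as UPM of the cell, with the mean over cells (bar), in 2 HEK293T LAST-seq libraries and the 2 batches of eHAP1 WT and SCC4 KO. The cells at 0 form a band in eHAP1 for BCR, ABL1 and GAB2. Most HEK293T cells were also at 0 for GAB2, with a UMI in 3 and 4 of 10 cells. BCL2L1 was found in every KO cell.

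The levels in single cells were compared next. Every HEK293T LAST-seq cell had a BCR UMI and 19 of 20 an ABL1 UMI, with 3 and 2.5 as the median number of BCR UMIs and 4 and 6.5 of ABL1 UMIs. In WT, BCR was found in 31 of 73 and 43 of 75 cells and ABL1 in 16 and 45. Both were found in 7 cells of batch 1 and 24 of batch 2, and neither in 33 and 11. With each cell thinned to 50000 UMIs, which left out 1 and 2 shallower WT cells, ABL1 was found in 15.3% (exact 95% interval 7.88 to 25.7) and 34.2% (23.5 to 46.3) of WT cells. The HEK293T shares were 60.0% (26.2 to 87.8) and 100% (69.2 to 100). BCR was found in 27.8% and 34.2% of thinned WT cells and in 60.0% of both HEK293T libraries, whose intervals (26.2 to 87.8) overlap those of WT (17.9 to 39.6 and 23.5 to 46.3). The ABL1 intervals of WT batch 2 also overlapped those of WT batch 1 and of HEK293T replicate 1.

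The spread between cells was measured as the CV (SD over mean) of UMIs scaled by the total of the cell, for members that averaged 1 UMI or more in a cell of the batch. In WT batch 1, 6 members reached this level and in batch 2, 7. CRKL had the lowest CV in batch 2 (0.485) and in batch 1 (0.536), where BCL2L1 was at 0.555. The highest were SOCS2 at 1.11 in batch 1 and ABL1 at 1.32 in batch 2. Counting alone would give a CV of 0.482 for CRKL, 0.634 for BCL2L1 and 1.10 for SOCS2 in batch 1, and 1.05 for ABL1 in batch 2. The squared CV above counting was 0.651 for ABL1 in batch 2, larger than in 94.4% of the 9701 genes at that level, whose median was 0.0593. The highest ABL1 level of a cell there was 55.5 UPM, which is 1 UMI in the shallowest cell, of 18022 UMIs. This scaled value adds to the spread of ABL1, and the spread without that cell was not computed. In KO batch 2 the same value for ABL1 was -0.105, larger than in 2.94% of genes, so the large spread of ABL1 was not seen there. PIM1 was at 0.519 in WT batch 2, 0.739 in KO batch 2 and 0.122 in WT batch 1, larger than in 91.2%, 98.1% and 70.4% of genes. CRKL was near the median of all genes in WT, at 0.0556 and 0.0640, and at 0.0034 and -0.0008 in KO.

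One WT cell of batch 2 held 926415 UMIs, 7.53% of its batch, and gave 21 of 176 GAB2 UMIs, 17 of 151 SOCS2 UMIs and 38 of 561 CRKL UMIs. Without it the same 3 members were called between the lines and none between genotypes. Between members, Spearman's correlation across the cells of a batch ranged from -0.32 to 0.30 over 67 pairs and batches, with a median of 0.01. In counts this sparse the range describes the cells and is no finding.

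SCC4 KO cells were compared with WT cells of the same batch number, although the labels do not say that a number marks a shared preparation. No member differed 2-fold in the same direction in both batches, by which rule 2.97% of 10655 genes were higher and 2.71% lower in KO. STAT5A, CISH and ABL1 failed the filter on low levels here, ABL1 at a mean just under 5 UPM, and 7 members passed. The median log2 difference was 0.31 over the 7 and 0.03 over all genes.

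The largest shift among the 7 was that of BCL2L1, at 28.5 and 24.0 UPM in WT and 51.9 and 44.8 in KO. Both KO batches lay above both WT batches, at a ratio of 1.82 in batch 1 (95% counting interval 1.53 to 2.18) and 1.87 in batch 2 (1.62 to 2.16). All 153 KO cells had a BCL2L1 UMI, against 68 of 73 and 65 of 75 WT cells, and 93.4% and 85.5% of KO cells after thinning against 76.4% and 64.4% of WT cells. STAT5B was at a ratio of 1.48 (1.19 to 1.84) and 1.56 (1.31 to 1.86), from 20.6 and 18.1 in WT to 30.5 and 28.3 in KO. CRKL was at 1.30 in both batches (1.12 to 1.50 and 1.16 to 1.45), from 48.6 and 45.6 to 63.1 and 59.3. The batches of WT and KO did not overlap for any of the 7 members that passed the filter, with KO higher for 4 and lower for 3. Such levels were common among all genes tested, of which 39.4% were higher and 34.0% lower in both KO batches than in both WT batches.

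PIM1, SOCS2, GAB2 and CISH had lower levels in KO than in WT in both batches, and none of them was called. PIM1 was at 14.4 and 10.6 UPM in WT and 8.86 and 7.11 in KO, at ratios of 0.616 (0.438 to 0.858) and 0.673 (0.504 to 0.893). SOCS2 was at 10.3 and 12.3 in WT and 7.46 and 8.48 in KO, at ratios of 0.723 (0.493 to 1.05) and 0.691 (0.530 to 0.896). GAB2 was at 13.02 and 14.3 in WT and 6.37 and 11.6 in KO, and its ratio of 0.489 (0.331 to 0.712) in batch 1 was 0.814 (0.646 to 1.02) in batch 2. CISH had 20 and 26 UMIs in WT and 2 and 14 in KO, at ratios of 0.115 (0.0130 to 0.472) and 0.567 (0.274 to 1.13). These intervals overlap, and that of batch 2 holds 1. Of the 4 targets of STAT5, only BCL2L1 was called by edgeR, as given below, and none by the 2-fold rule.

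STAT5A had 16 UMIs in WT and 0 among the 18112712 UMIs of KO, at least 4.91-fold lower when 3 counts over both KO batches are taken as the floor. By batch, WT held 11 and 5 UMIs, at least 3.20-fold and 1.58-fold above a floor of 3 counts in each KO batch. The counting interval of the ratio ran from 0 to 0.456 in batch 1 and from 0 to 1.149 in batch 2, which holds 1. BCR was at ratios of 1.21 (0.812 to 1.81) and 1.36 (0.981 to 1.89), with both intervals holding 1. ABL1 was at 2.33 and 7.71 UPM in KO against 3.39 and 6.42 in WT, at ratios of 0.687 (0.337 to 1.36) and 1.20 (0.877 to 1.64). The batches of ABL1 differed more than the genotypes: batch 2 was above batch 1 in both.

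**Figure D5:**
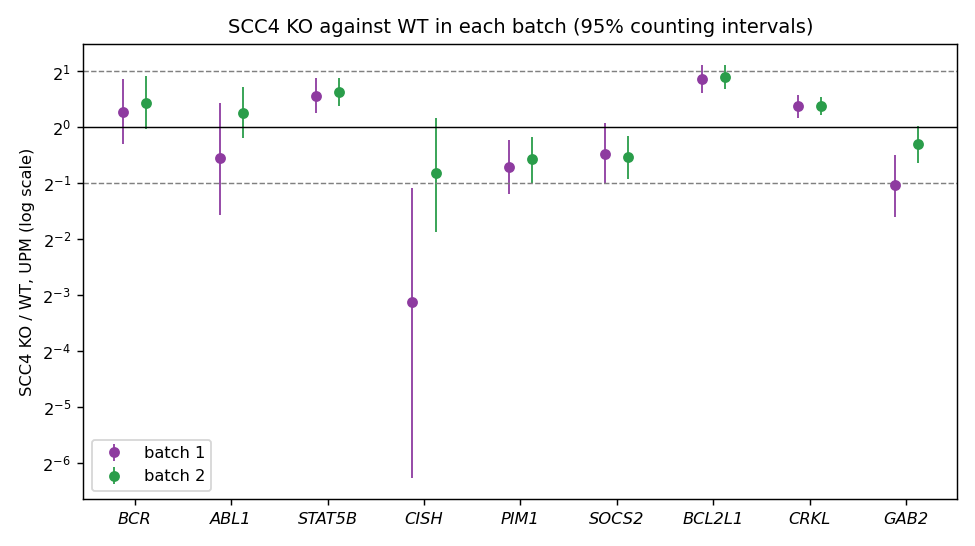
Ratio of SCC4 KO to WT in UPM (log scale) for 9 genes in each batch, with 95% counting intervals; dashed lines mark 2-fold, and STAT5A, at 0 in KO, is left out. BCL2L1, STAT5B and CRKL lie above 1 in both batches, and CISH, PIM1, SOCS2 and GAB2 below.

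The edgeR test on the 4 batch sums called 22.1% of all genes higher and 20.1% lower in KO. It called BCL2L1 (log2 0.89, adjusted p = 0.000920), CRKL (log2 0.38, adjusted p = 0.00192) and STAT5B (log2 0.60, adjusted p = 0.0119) higher, and none of the 7 members lower. The adjusted p of edgeR was 0.186 for PIM1, 0.253 for GAB2, 0.269 for SOCS2 and 0.490 for BCR. These p-values measure only the spread between the 2 batches, and each genotype was 1 sample.

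Of the 11 adaptors and partners that passed in this comparison, PIK3R1, the regulatory subunit of PI3K, was called higher in KO, at 9.50 and 10.8 UPM in WT and 31.9 and 30.4 in KO. None was called lower. In each of the other lists on the pathway no gene was called by the 2-fold rule, out of 6 JAK kinases and other STATs, 2 cytokine receptors, 7 further STAT5 targets and 6 inhibitors. By edgeR, which called 22.1% of all genes higher and 20.1% lower, 3 of the 6 JAK kinases and other STATs were higher in KO and none lower. The 7 further STAT5 targets split into 3 higher and 2 lower, the 11 adaptors and partners into 2 and 1, and the 6 inhibitors into 1 and 1. Of the 2 cytokine receptors 1 was higher and none lower.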

How the data were processed

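UMIs per gene and well were analysed for HEK293T libraries and eHAP1 cells. The authors demultiplexed reads with bcl2fastq 2.20, subsampled them, mapped them to GRCh38 plus spike-ins and used zUMIs to count exon reads and to merge identical UMIs. The deposited values are raw counts of UMIs, and for 3 libraries also of reads. Whether the eHAP1 counts precede the ComBat-seq step of the study is not given in the sources used here. SMART-seq tables hold reads and were not used.

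Spike-ins, up to 4.92% of a table, were removed. Ensembl identifiers were paired with symbols by GENCODE, which held 99.5% of them. UMIs were summed over the cells of a library or batch and scaled to total UMIs, with a pseudocount of 1 on that scale. No cell counted as a replicate of its condition. Intervals are at the 95% level. Those of levels and ratios cover the counting of UMIs, and those of shares of cells the sampling of cells within 1 library or batch, so neither covers the spread between cultures. Alternatives used edgeR 4.0.16 and DESeq2 1.42.0 with Benjamini-Hochberg adjustment over all genes past the filter, in R 4.3.3. Other steps used Python 3.11.15, numpy 2.4.6, scipy 1.17.1 and pandas 2.3.3. Scripts were tested on simulated data. The genes and lists were chosen with earlier results of these data known. Named besides the 10 genes were up to 3 rises and 3 falls past 2-fold in each list, the 3 largest differences on each side of ABL1 and BCR, and the 3 genes of most similar pattern.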

Additional observations from a re-analysis of the deposited data

How the results depend on the processing

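BCR, ABL1 and GAB2, the 3 members called between eHAP1 WT and HEK293T, were called together with total, TMM and size-factor scaling, with no filter and with a pseudocount of 0.1. With a pseudocount of 5, BCR was no longer called (log2 -1.20), nor against HEK293T lysate and 15-pg RNA (log2 -1.18), where SOCS2 was called instead. GAB2 reversed against HEK293T by CEL-seq2 (log2 -1.28). Leaving out 1 library or batch left between 3 and 4 members called, with PIM1 added without HEK293T replicate 1 and BCL2L1 without replicate 2. Between genotypes no member was called by 2-fold in any setting, including leaving out a batch (0 in each) and cells of at least 100000 UMIs, whereas edgeR without and with the replicate block, edgeR with TMM, and DESeq2 each called 3, the same BCL2L1, STAT5B and CRKL, at adjusted p from 1.94e-07 to 0.000920 for BCL2L1. With no filter, edgeR called the same 3 higher and also STAT5A lower in KO (log2 -6.14, adjusted p = 0.0272). That call rests on 16 UMIs in WT and 0 in KO. The deviations of batch 1 from the mean of both batches had a correlation of -0.002 between the genotypes, and the block changed no call of a member. This correlation cannot show whether the batch numbers mark shared preparations, as the counts may already have passed through ComBat-seq. With the 2-fold rule over all 4 pairs of a WT and a KO batch, an alternative added after the data were seen, 0 members were called, and 491 of all genes. The median CV of members in WT rose from 0.811 to 1.154 when cells were thinned to 50000 UMIs, which leaves fewer UMIs per cell. Over all genes, calls between the lines went from 2362 to 4670 with CEL-seq2, 4008 with edgeR, 3552 with no filter, and 3636 and 3537 without 1 HEK293T replicate. Between genotypes they went from 605 to 4502 with edgeR, 4739 with the block, 4656 with TMM, 4094 with DESeq2, 1083 with no filter, 317 with a pseudocount of 5, and 1161 and 1524 with 1 batch. The causes were not tested. With 10 cells in a HEK293T library, PIM1, SOCS2, GAB2 and CISH rest on under 20 UMIs each.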
